A study of Mus musculus with 15 samples.

Results

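Mitochondria carry their own ribosomes, the mitoribosomes, which translate the few messenger RNAs encoded by mitochondrial DNA into core subunits of the respiratory chain. All proteins of the mitoribosome are encoded in the nucleus, made in the cytosol and imported, so their mRNAs are read in a poly(A) RNA library. Genes named Mrpl encode proteins of the large subunit, which joins amino acids, and genes named Mrps mostly encode proteins of the small subunit, which reads the mRNA. In granulosa cells, the somatic cells around the oocyte, mitochondria also hold the first enzyme of steroid synthesis.

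The genes described here were all rows of the count files whose symbol is Mrpl or Mrps followed by a number and an optional letter, with at least 10 counts summed over the 15 libraries. This gave 77 of 24490 genes, 48 Mrpl and 29 Mrps. The members were chosen by symbol and by this count minimum, the only measured value used, and the minimum removed none of the 77 matching symbols: the least counted member had 7564 counts in all, so no member lies just inside the minimum and none just outside. All 77 also passed the expression filter of the test. Together they held 0.224% to 0.305% of the gene counts of a library.

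The study asked which genes depend on the transcription factor FOXL2 and on the oestrogen receptor ESR2 in primary ovarian granulosa cells of 8-week-old RjOrl:SWISS female mice. The cells were transfected with 30 pmol of siRNA by a lipid reagent: a scrambled, non-targeting siRNA, pools of 3 siRNAs against Foxl2, or pools of 3 siRNAs against Esr2. The labels' protocol lists the same catalogue numbers for the Foxl2 and the Esr2 pools, so the siRNAs of these groups are known only by their named target. The 15 libraries form 5 groups of 3: scrambled at 30 h, scrambled at 54 h, Foxl2 siRNA at 30 h, Foxl2 siRNA at 54 h, and Esr2 siRNA at 30 h. All groups share the wild-type strain, age, sex and transfection reagent, and no group is untransfected. No label ties a replicate to its own culture or animal, or names the siRNA pool a library received. The p-values therefore cover the spread among these 15 libraries, some of which may be technical. The sequenced RNA is that of the whole culture, where fewer cells of a type and less RNA per cell cannot be told apart.

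Gene counts per library ranged from 44976872 to 59550065. Levels are given in CPM, the count of a gene scaled to a common library total with the TMM factors of edgeR, and changes as log2 fold changes ± standard error from edgeR's quasi-likelihood test over 14907 genes. A gene was called at a Benjamini-Hochberg adjusted p under 0.05 over all of them. Foxl2 stood at 143 to 189 CPM in the scrambled libraries and at 25.2 to 65.4 CPM after Foxl2 siRNA; replicate 3 at 30 h (65.4 CPM) and replicate 2 at 54 h (57.5 CPM) kept the most. After Esr2 siRNA Foxl2 stood at 112, 128 and 114 CPM, below every scrambled library. Esr2 stood at 45.5 and 49.3 CPM in those libraries, at 15.7 to 29.2 CPM in the other Foxl2 siRNA libraries, and at 12.9 to 14.5 CPM after Esr2 siRNA. The 12 granulosa markers summed to 5410 to 6040 CPM (scrambled, 30 h), 5240 to 5340 CPM (scrambled, 54 h), 6700 to 7600 CPM (Foxl2 siRNA, 30 h), 5620 to 6180 CPM (Foxl2 siRNA, 54 h) and 4930 to 5250 CPM (Esr2 siRNA). Of them 6 fell and 2 rose after Foxl2 siRNA at 54 h. Markers of oocytes (6 genes, at most 0.822 CPM in sum, Figla at 0) and leukocytes (6 genes, at most 3.16 CPM) were near 0. Erythroid markers (5 genes, Hba-a1, Hba-a2 and Hbb-bs at 0) reached 2.11 CPM, with 0.91 to 2.11 CPM after Foxl2 siRNA at 54 h and at most 0.593 CPM elsewhere. The 5 surface epithelium markers found in the files summed to 23.2 to 76.0 CPM in scrambled libraries, 62.8 to 98.0 CPM after Foxl2 siRNA at 30 h and 240 to 332 CPM at 54 h; their part in the results below was not tested. Theca and stroma markers (6 genes) ranged from 130 to 792 CPM and endothelial markers (5 genes) from 2.68 to 14.1 CPM, in both cases with overlapping ranges between groups.

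Promoter sequence is shown for 6 of the members whose values carry the results, with the motifs found in it. Only the bases nearest the start are printed. Mrpl40 and Mrps5 were sought too but are not shown. Too few of their bases remained before the annotated starts and outside a neighbour's exons. Sequences are from the RefSeq table of build GRCm38.p6, which held a promoter window (250 bases before to 50 after the start) for 68 of the 77 members. Each line below runs 5′ to 3′ on the gene's strand and ends just before the most upstream annotated start. Capitals mark matches, on either strand, to 4 motifs: the NRF1 core (GCGCANGCG), ETS/GABPA (CCGGAAG), YY1 (AANATGGC) and SP (GGGCGG). NRF1 and GABPA are known activators of nuclear genes for mitochondrial proteins.
Mrpl30: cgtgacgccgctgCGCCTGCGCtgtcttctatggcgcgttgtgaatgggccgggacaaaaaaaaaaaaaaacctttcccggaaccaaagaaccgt
Mrpl16: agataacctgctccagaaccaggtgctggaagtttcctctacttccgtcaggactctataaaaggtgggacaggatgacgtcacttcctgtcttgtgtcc
Mrpl50: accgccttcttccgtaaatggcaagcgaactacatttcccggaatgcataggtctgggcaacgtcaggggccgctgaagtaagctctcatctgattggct
Mrps16: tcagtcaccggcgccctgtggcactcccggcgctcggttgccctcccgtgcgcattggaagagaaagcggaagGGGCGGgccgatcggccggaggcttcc
Mrps26: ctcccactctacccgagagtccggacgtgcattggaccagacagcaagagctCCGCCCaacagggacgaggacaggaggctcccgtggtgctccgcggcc
Mrpl34: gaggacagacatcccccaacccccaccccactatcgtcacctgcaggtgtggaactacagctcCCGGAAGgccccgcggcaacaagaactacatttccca

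The Mrpl30 window lies at chr1:37890382-37890476 on the plus strand, the Mrpl16 window at chr19:11770291-11770390 (plus), the Mrpl50 window at chr4:49521094-49521193 (minus), the Mrps16 window at chr14:20393635-20393734 (minus), the Mrps26 window at chr2:130563642-130563741 (plus) and the Mrpl34 window at chr8:71464826-71464925 (plus). A motif can lie outside the printed bases: the full RefSeq window of Mrps26 also holds the NRF1 core and ETS/GABPA motifs, and that of Mrps16 the ETS/GABPA motif. In the Mrpl30 window the NRF1 core starts 82 bases before the gene's start. Of that window, 30 bases at the far end lie in an exon of Mitd1, the gene on the other strand. In the Mrpl50 window 18 bases lie in an exon of another gene. Of the 68 member promoters, 23.5% held the NRF1 core, 35.3% the ETS/GABPA motif and 29.4% the YY1 motif. The shares over the 27025 promoters of the table were 6.47%, 9.12% and 6.23%, and over the 11216 promoters of tested genes 13%, 16.8% and 8.22%. At least 1 of these 3 motifs was in 46 member windows (67.6%), against 32.4% of tested promoters. The SP motif was in 50% of member windows and 62.9% of tested promoters, and the TATA motif (TATAAA) in 5.88% and 7.21%. A forkhead motif (GTAAACA), the kind of site FOXL2 and its relatives can bind, was in 2.94% of member windows, 2.39% of tested promoters and 3.55% of all. The members with it were Mrpl40 and Mrpl44, named for this after the search. The oestrogen response half-site (AGGTCA) was in 16.2% of member windows, 12.3% of tested promoters and 16% of all. The E-box (CACGTG) was in 7.35% of member windows and 9.99% of tested promoters, the CCAAT box (CCAAT) in 39.7% and 38.9%, and the ERR motif (AAGGTCA), which contains the half-site, in 5.88% and 3.24%. A match is a description of letters, not a site.

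The members lie on 17 chromosomes, with 10 on chromosome 11 and 0 on X or Y. Their coding lengths run from 195 to 1326 bases with a median of 576. A neighbour transcribed away from the same start region, within 1000 bases, was annotated for 23 members (29.9%), against 11.3% of 13692 tested protein-coding genes. Mrpl30 (chr1:37890477-37898535, plus) has Mitd1 at 66 bases, Mrpl40 (chr16:18872018-18876862, minus) has Hira at 175 bases, Mrpl50 (chr4:49512596-49521093, minus) has Zfp189 at 83 bases and Mrps5 (chr2:127587222-127606829, plus) has Zfp661 at 128 bases. Exons of 4 members overlap those of another gene on the same strand, Mrpl53, Mrps6, Mrps24 and Mrps34, and exons of 20 overlap a gene on the other strand, Mrpl47 and Mrpl21 among them. The strand setting of the counting is not given in the sources used here, so these counts may hold reads of the neighbour. Coordinates of genes are from GENCODE M21 on the same build, mm10.

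Per kilobase of coding sequence, the most abundant members in scrambled cells at 30 h were Mrpl33 (334 CPM per kb), Mrps21 (207 CPM per kb) and Mrpl20 (151 CPM per kb), all of families shared with bacteria. The least abundant were Mrpl47 (17.6 CPM per kb), Mrps5 (17.9 CPM per kb) and Mrps35 (19.5 CPM per kb). This scaling uses coding length alone, which raises genes with short coding sequences such as Mrpl33 (195 bases) and Mrps21 (261 bases). Without it Mrpl33, Mrps21 and Mrpl20 had means of 65.0, 53.9 and 67.5 CPM, and other members were higher. The lowest count of any member in any library was 227, for Mrpl30. The ratio of the highest to the lowest group mean was 1.05 for Mrpl38, 1.06 for Mrpl27 and 1.06 for Mrpl36, and 1.79 for Mrpl16, 1.8 for Mrpl50 and 2.9 for Mrpl30 at the other end.

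At 30 h after Foxl2 siRNA, 5 of the 77 members were called, all lower: Mrpl16, Mrpl40, Mrps5, Mrps16 and Mrps26. Over all tested genes 13.0% were called and 6.65% were called lower, so the members' 6.49% was near the background. No member was called higher by edgeR or DESeq2 (6.34% of all tested genes were by edgeR). At an unadjusted p under 0.05, 18 members were lower and 0 higher (23.4%), fewer than the 28.1% of all tested genes, and limma-voom called 1 higher, Mrps24. A change below 0 was measured for 68 members (88.3%), against 51.5% of all tested genes, with a median log2 change of -0.10 for the members and -0.01 for all genes. The members' median was -0.02 without Foxl2 siRNA replicate 2 and -0.16 without replicate 3. At 30 h, 17 members had Foxl2 siRNA libraries all below the scrambled ones (22.1%, background 17.7%).

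The count at 30 h changed with single libraries, and so did the share of all genes called. It was 1 without Foxl2 siRNA replicate 2, 16 without Foxl2 siRNA replicate 3, 1 without scrambled replicate 1, 3 without scrambled replicate 2, 1 without scrambled replicate 3, and 25 when the 30 h replicate 3 and the 54 h replicate 2 of Foxl2 siRNA were both left out. Over all tested genes the share called was 7.18% without Foxl2 siRNA replicate 2, 19.9% without replicate 3, 5.95% to 7.74% without a scrambled replicate and 30.4% with both libraries left out. Only the groups compared gave 1 call (all genes 10.0%), and limma-voom with sample weights 19 (all genes 35.2%). RLE scaling gave 3 calls (12.7%), upper-quartile scaling 3 (13.4%) and no filter 3 (9.77%).

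Mrpl40, a large-subunit protein found in mitochondria and not in bacteria, was the call that remained under every alternative run at 30 h. Scrambled replicates 1 to 3 held 38.8, 39.9 and 40.3 CPM, and those of Foxl2 siRNA 30.1, 26.3 and 33.1 CPM. No Foxl2 siRNA library reached the scrambled range. This fall was 1.33-fold (log2 change -0.41 ± 0.07, adjusted p = 0.00235 by edgeR). At 54 h the values were 38.9, 38.8 and 38.0 CPM under scrambled siRNA and 27.2, 27.9 and 29.8 CPM under Foxl2 siRNA, a fall of 1.36-fold (log2 change -0.45 ± 0.07, adjusted p = 0.000355 by edgeR). With Esr2 siRNA Mrpl40 stood at 43.5, 43.2 and 42.2 CPM, above the scrambled libraries, a log2 change of 0.12 that was not called.

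Mrpl16 belongs to the family of bacterial L16, which lies beside the tRNA sites of the large subunit. It is at chr19:11770391-11774960 (plus). At 30 h it was measured at 51.4, 38.8 and 47.6 CPM in scrambled libraries and 29.3, 21.9 and 34.3 CPM in Foxl2 siRNA libraries, with no overlap. The fall was 1.61-fold (log2 change -0.69 ± 0.175, adjusted p = 0.0213 by edgeR). That call was lost under 5 of 14 alternatives, among them only the groups compared (adjusted p = 0.0564) and the fit without Foxl2 siRNA replicate 2 (adjusted p = 0.0857). At 54 h Mrpl16 stood at 49.4, 40.8 and 41.8 CPM under scrambled siRNA and at 24.6, 26.7 and 25.8 CPM under Foxl2 siRNA. Here the fall was 1.71-fold (log2 change -0.77 ± 0.175, adjusted p = 0.00372 by edgeR), and it was called under each of the 14 alternatives. Its scrambled and Esr2 siRNA values spread widely, with 37.3, 51.2 and 33.4 CPM after Esr2 siRNA.

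Among the small-subunit genes called at 30 h, Mrps5 stood at 23.9, 22.3 and 23.3 CPM under scrambled siRNA and at 19.6, 17.9 and 19.4 CPM under Foxl2 siRNA (log2 change -0.29 ± 0.07, adjusted p = 0.0137 by edgeR). Mrps16 went from 26.6, 25 and 26.3 CPM to 23.7, 17.7 and 20.3 CPM (log2 change -0.34 ± 0.10, adjusted p = 0.0482 by edgeR). Mrps26 went from 31.5, 30.2 and 29.6 CPM to 24.8, 22.9 and 28.0 CPM (log2 change -0.27 ± 0.08, adjusted p = 0.0494 by edgeR). Foxl2 siRNA replicate 2 was the lowest library for each of the 3 genes. Mrps16 and Mrps26 passed narrowly, and each kept its call under 5 of 14 alternatives. Mrps5, a protein of the small-subunit core, kept it under 10.

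**Figure D1:**
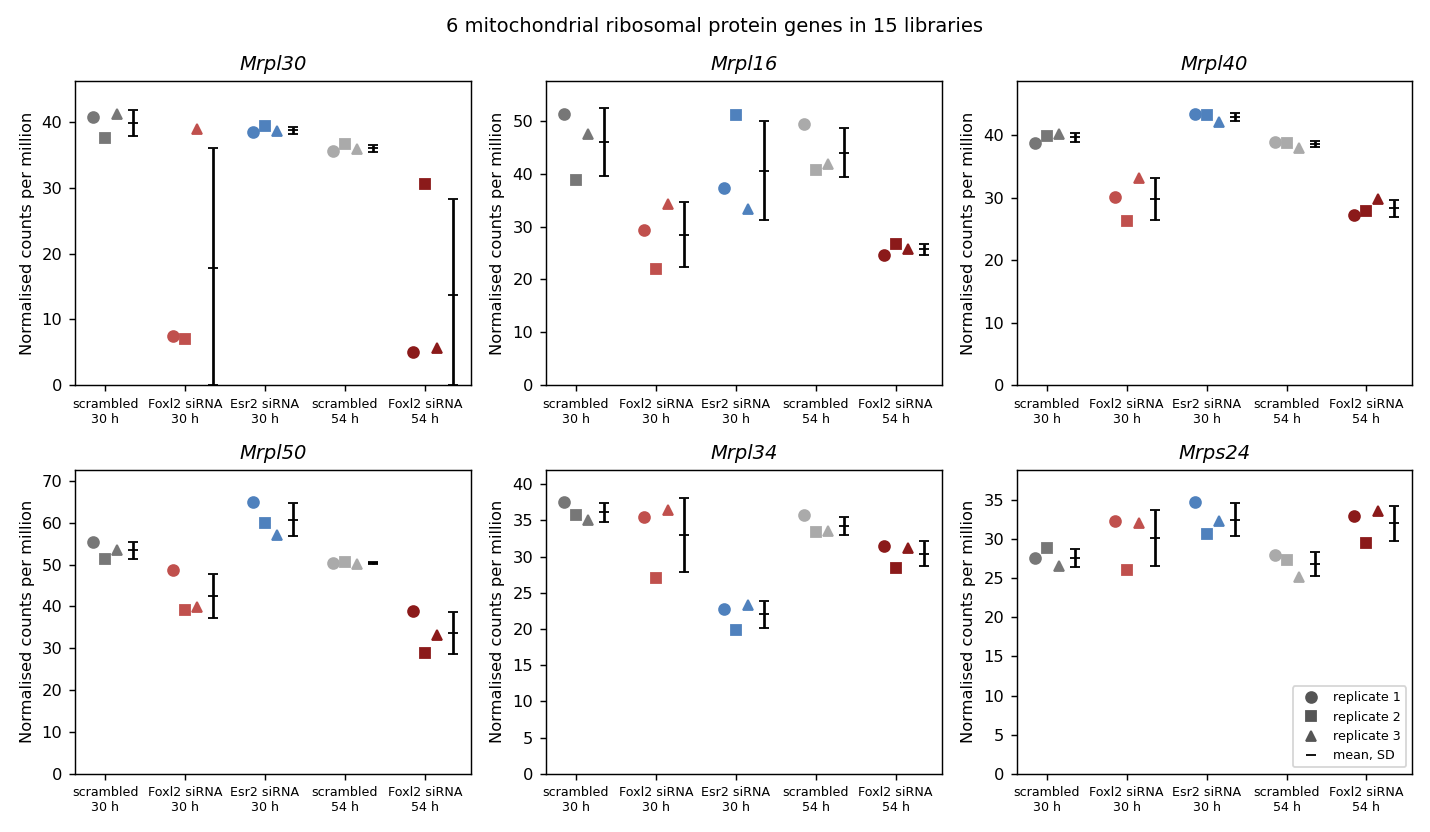
Normalised CPM of 6 mitoribosomal protein genes (vertical axes from 0) in the 15 libraries, by group, with circles, squares and triangles for replicates 1, 2 and 3 and the mean with its SD beside them (bars that would pass below 0 end at 0). Mrpl30 is at 4.99 to 7.49 in 4 Foxl2 siRNA libraries and at 30.6 or more in all others, and Mrpl34 is at 19.8 to 23.3 after Esr2 siRNA and at 27.0 or more elsewhere.

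Mrpl30, the member of the bacterial L30 family, had the largest fitted change and was not called. In scrambled replicates 1 to 3 it stood at 40.8, 37.6 and 41.3 CPM at 30 h and at 35.6, 36.6 and 35.9 CPM at 54 h. After Foxl2 siRNA it stood at 7.49, 6.93 and 38.9 CPM at 30 h and at 4.99, 30.6 and 5.64 CPM at 54 h. Replicates 1 and 2 at 30 h and replicates 1 and 3 at 54 h are low, and replicate 3 at 30 h and replicate 2 at 54 h are at or near the scrambled level. The latter are the libraries that kept 65.4 and 57.5 CPM of Foxl2. After Esr2 siRNA it stood at 38.5, 39.4 and 38.6 CPM. The log2 change was -1.17 ± 0.67 at 30 h (edgeR adjusted p = 0.28) and -1.38 ± 0.67 at 54 h (edgeR adjusted p = 0.123).

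Both values depended on which libraries entered the fit. Without Foxl2 siRNA replicate 3 its log2 change at 30 h was -2.47, and without Foxl2 siRNA replicate 2 at 54 h it was -2.75. With both left out, the changes were -2.47 at 30 h and -2.76 at 54 h. Those 2 libraries were picked after the data were seen. They are the ones where Mrpl30 stayed high, so a larger fall without them follows from the choice. No p is given for a fit that leaves out either or both. Limma-voom with library quality weights called it at both times (limma adjusted p = 0.000135 and 0.000138). DESeq2 did not (adjusted p = 0.303 and 0.131), and over the remaining alternatives the adjusted p ran from 0.261 to 0.586 at 30 h and from 0.12 to 0.316 at 54 h. Whether the siRNA pool used in each library moves with this split was not tested, since the labels do not give it. Over all tested genes, deviations from group means correlated at 0.643 between 30 h replicate 3 and 54 h replicate 2. The split at 54 h may therefore not be an independent repeat of that at 30 h. Mitd1, which starts 66 bases away on the other strand, stood at 12.7 to 18 CPM in all 15 libraries, with log2 changes of 0.05 ± 0.12 at 30 h and 0.00 ± 0.12 at 54 h (edgeR adjusted p = 0.835 and 0.994).

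A smaller split of the same libraries was seen in Mrpl4 and Mrpl55, which were chosen after their values were seen. Mrpl4, of the bacterial L4 family, stood at 30.2 to 33.7 CPM in the 6 scrambled libraries. Foxl2 siRNA libraries held 21.8, 21.5 and 31.8 CPM at 30 h and 17.0, 27.6 and 18.4 CPM at 54 h. Its log2 change was -0.39 ± 0.18 at 30 h (edgeR adjusted p = 0.164) and -0.57 ± 0.18 at 54 h (edgeR adjusted p = 0.0211, kept under 10 of 14 alternatives). Mrpl55 stood at 12.7 to 14.7 CPM in scrambled libraries, at 10.8, 7.52 and 15.3 CPM at 30 h and at 8.67, 13.6 and 7.88 CPM at 54 h. Neither of its changes was called (log2 -0.37 ± 0.23 and -0.45 ± 0.23, edgeR adjusted p = 0.312 and 0.14).

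At 54 h after Foxl2 siRNA, 26 of the 77 members fell and 1 rose. Over all tested genes 38.8% were called, 20.3% lower and 18.5% higher, so the members' 35.1% was near the background in number and 33.8% of members were called lower. Falls were small: the median log2 change of the 77 was -0.17 (all genes -0.01), with quartiles of -0.29 and -0.05. Only Mrpl16 and the uncalled Mrpl30 stood at least 1.5-fold lower (2.6% of members, against 11.2% of all tested genes). The Foxl2 siRNA libraries all lay below the scrambled ones for 48 members (62.3%, background 27.9%), and all above them for 2 (2.6%, background 23.5%). Leaving out scrambled replicate 1 gave 14 calls, scrambled replicate 3 gave 17, and Foxl2 siRNA replicate 1 gave 17. Without the 30 h replicate 3 and the 54 h replicate 2 of Foxl2 siRNA it was 32. The share of all genes called was 29.8%, 29.3%, 29.5% and 48.4% in these fits.

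Calls of 11 members at 54 h were kept under all 14 alternatives: Mrpl1, Mrpl3, Mrpl16, Mrpl21, Mrpl40, Mrpl45, Mrpl47, Mrpl50, Mrps5, Mrps17 and Mrps27. Of the large subunit, Mrpl50 stood at 50.4, 50.6 and 50.1 CPM under scrambled siRNA and at 39.0, 28.9 and 33.1 CPM under Foxl2 siRNA (log2 change -0.58 ± 0.10, adjusted p = 0.000768 by edgeR). Mrpl47, of the L29 family near the exit of the peptide tunnel, stood at 12.1, 12.4 and 11.4 CPM against 7.74, 9.94 and 8.42 CPM (log2 change -0.46 ± 0.10, adjusted p = 0.00247 by edgeR). Mrpl45, which tethers the ribosome to the inner membrane, stood at 49.3, 47.5 and 47.8 CPM against 37.9, 39.7 and 38.1 CPM (log2 change -0.32 ± 0.07, adjusted p = 0.00209 by edgeR). For all 3 genes the groups were apart, with the highest Foxl2 siRNA library under the lowest scrambled one.

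Mrpl1 is of a family shared with bacteria, and Mrpl12 is a protein of the stalk where translation factors bind. Mrpl1 fell 1.27-fold, from 28.1, 26.2 and 26.7 CPM to 21.9, 19.7 and 21.9 CPM (edgeR adjusted p = 0.000744). Mrpl12 stood at 60.2, 57.7 and 59.0 CPM under scrambled siRNA and at 46.9, 42.4 and 50 CPM under Foxl2 siRNA (log2 change -0.345 ± 0.125, adjusted p = 0.043 by edgeR), a call kept under 5 of 14 alternatives. Mrpl21 fell 1.27-fold as well, from 18.1, 17.2 and 18 CPM to 13.9, 13.4 and 14.6 CPM (edgeR adjusted p = 0.00211). All 3 were apart from the scrambled libraries.

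In the small subunit, Mrps5 had the largest fall at 54 h, from 22.0, 22.7 and 22.6 CPM to 18.1, 15.6 and 15.9 CPM (log2 change -0.44 ± 0.07, adjusted p = 0.000283 by edgeR). Mrps27, a mitochondria-specific protein with RNA-binding repeats, fell from 23.5, 24.3 and 24.3 CPM to 17.7, 17.6 and 20.2 CPM (log2 change -0.38 ± 0.08, adjusted p = 0.00188 by edgeR). Mrps17 fell from 45, 46.1 and 44.0 CPM to 34.4, 40 and 36.0 CPM (log2 change -0.29 ± 0.07, adjusted p = 0.00433 by edgeR). Mrps12, the small-subunit protein of the decoding site, stood at 33.9, 31.2 and 31.1 CPM against 32.4, 28.8 and 33.0 CPM, and its groups overlapped (log2 change -0.03 ± 0.10, adjusted p = 0.849 by edgeR).

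Mrps24 was the member that rose. It stood at 28.0, 27.3 and 25.1 CPM under scrambled siRNA and at 33.0, 29.5 and 33.6 CPM under Foxl2 siRNA at 54 h (log2 change 0.26 ± 0.09, adjusted p = 0.0345 by edgeR). The call was lost in 4 of the 6 fits that left out 1 library, with adjusted p from 0.0678 to 0.128. Exons of Mrps24 overlap those of Urgcp on the same strand, so reads of both may be mixed.

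None of the 3 paralogs of bacterial S18 was called by edgeR in any of the 5 comparisons. Mrps18a, which sits in the large subunit despite its name, had log2 changes of -0.05 ± 0.08 at 30 h and -0.12 ± 0.08 at 54 h after Foxl2 siRNA. Mrps18b was closest to the threshold at 54 h (log2 change -0.23 ± 0.09, adjusted p = 0.0564 by edgeR), and Mrps18c stood at 0.01 ± 0.11. Mrps30, also a large-subunit protein, had log2 changes of -0.23 ± 0.08 and -0.19 ± 0.08 (edgeR adjusted p = 0.0696 and 0.0631), with no overlap of groups at either time. Mrps36, which is a component of the oxoglutarate dehydrogenase complex, stood at 26.2 to 28.3 CPM in the 54 h scrambled libraries; Foxl2 siRNA gave 27.1, 32.3 and 28.7 CPM (log2 change 0.10 ± 0.10, adjusted p = 0.43 by edgeR). Mrps6, which shares exons with Slc5a3, stood at 36.7 to 37 CPM against 33.6, 35.6 and 35.8 CPM (log2 change -0.07 ± 0.09, adjusted p = 0.543 by edgeR).

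**Figure D2:**
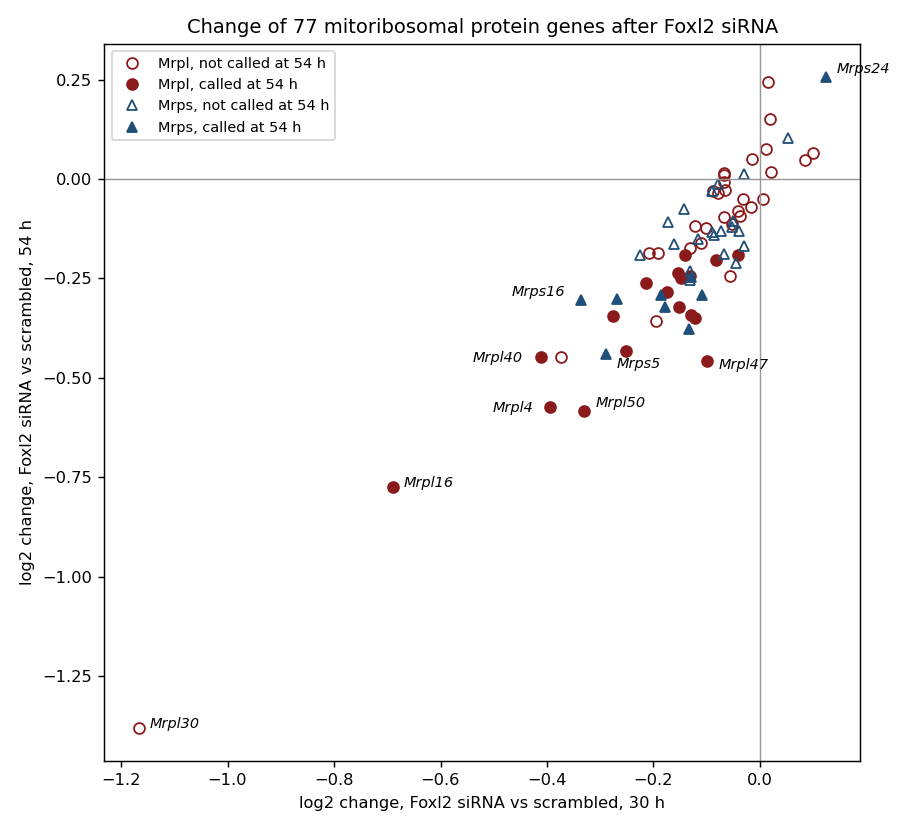
Log2 change after Foxl2 siRNA at 30 h (horizontal) and at 54 h (vertical) for the 77 members, circles for Mrpl and triangles for Mrps genes, filled where called at 54 h. Most points lie below and left of 0, with 65 of 77 below 0 at 54 h, and Mrpl30 and Mrpl16 lie farthest out.

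No member was called for a difference between the 54 h and the 30 h change, where 0.00671% of all tested genes (1 gene) were called. By edgeR 3 members had an unadjusted p under 0.05 (3.9%, against 10.1% of all tested genes). DESeq2 and limma-voom called 0 members, where they called 1.09% and 7.08% of all genes. Mrpl47 had the lowest value, a change that was 0.36 ± 0.14 more negative at 54 h on the log2 scale (value -0.36, edgeR adjusted p = 0.39). Without Foxl2 siRNA replicate 2 at 54 h Mrpl47 was called by edgeR (log2 -0.47), in a fit that called 6% of all genes. That library held the most Mrpl47 of its group (9.94 CPM, against 7.74 and 8.42 CPM). A larger difference without it follows from the choice, so no p is given. Mrpl54 had the highest value, 0.23.

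At 30 h, Foxl2 siRNA replicate 2 stood apart for the members. It was the lowest library of its group for 75 of the 77 (97.4%), against 36.9% of all tested genes. Its median log2 shift from the scrambled 30 h mean was -0.28, against -0.07 in replicate 1 and -0.01 in replicate 3. At 54 h the 3 Foxl2 siRNA libraries were close to each other, at -0.22, -0.27 and -0.20, and the scrambled 54 h libraries stood at -0.045, -0.09 and -0.08. The same library was low for cytosolic ribosomal proteins, whose median shift was -0.43 there and -0.17 and 0.10 in replicates 1 and 3. Its Foxl2 level, 28.4 CPM, was the lowest of its group, and its gene count of 51304984 was within the range of the others. Its part in the members' values at 30 h is given by the counts without it, and no cause was tested.

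**Figure D3:**
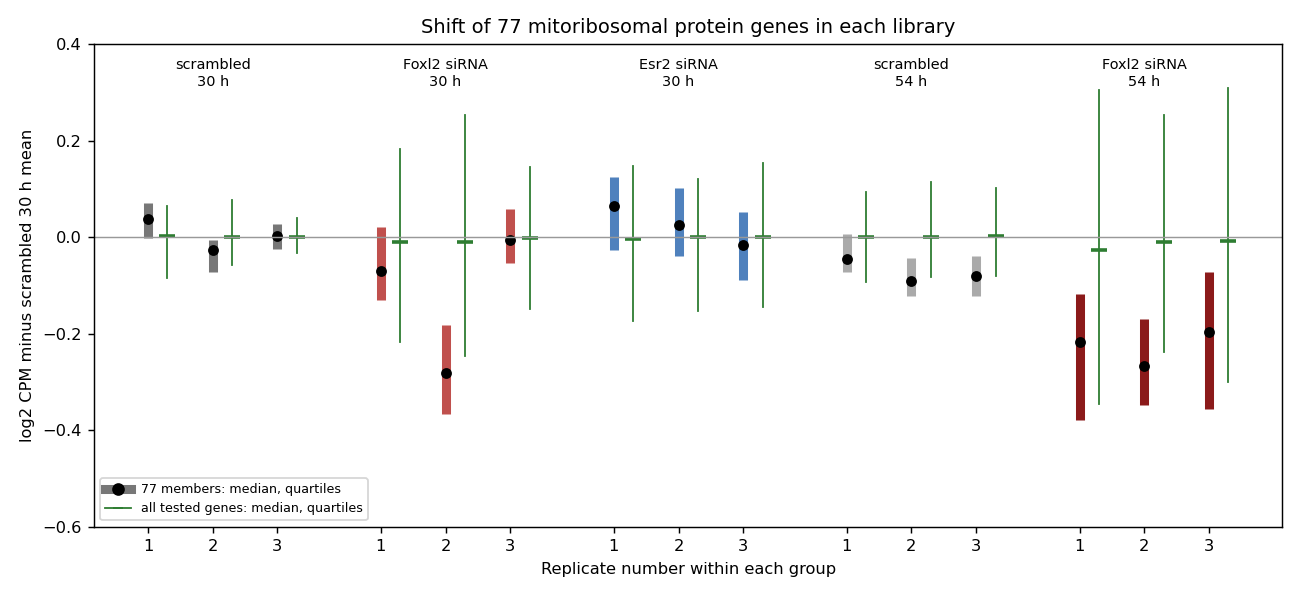
Log2 CPM of the 77 members minus each member's scrambled 30 h mean, per library (median as a black point, quartiles as a thick bar), beside the median and quartiles of all tested genes (thin green). Foxl2 siRNA replicate 2 at 30 h has a median of -0.28 while replicates 1 and 3 of that group are at -0.07 and -0.01, and all Foxl2 siRNA libraries at 54 h lie between -0.20 and -0.27.

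The members also varied together within groups. After subtraction of group means over the 15 libraries, the median Pearson correlation of log2 CPM between pairs of members was 0.497, against -0.0016 between pairs of all tested genes, 0.586 between nuclear subunits of oxidative phosphorylation and 0.863 between cytosolic ribosomal proteins. These pairs share libraries, depth and scaling, so the value is a description. Without Foxl2 siRNA replicate 2 at 30 h it was 0.192 for the members, 0.255 for oxidative phosphorylation and 0.786 for cytosolic ribosomal proteins. Large-subunit pairs (0.5), small-subunit pairs (0.486) and mixed pairs (0.498) had similar values over all 15 libraries. Mrpl47 (0.144) and Mrpl30 (0.16) had the lowest median correlation with the other members.

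At 54 h after Foxl2 siRNA, 18 of 48 Mrpl genes were called, all lower (37.5%). Of 29 Mrps genes, 8 were called lower (27.6%) and 1 higher. Over all tested genes 38.8% were called and 20.3% were called lower. The median log2 change was -0.18 for Mrpl and -0.16 for Mrps at 54 h, and -0.10 and -0.11 at 30 h. Whether the shares called differ between the subunits was not tested. Members of families shared with bacteria (47 genes) had 18 lower (38.3%) and 1 higher at 54 h. Mitochondria-specific ones (28 genes) had 8 lower (28.6%). The medians were -0.19 and -0.14. The 23 members with a head-to-head neighbour had a median of -0.13 and the other 54 a median of -0.18.

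Summed over genes, the members reached 2817 ± 69 CPM (SD, n = 3) with scrambled siRNA at 30 h and 2689 ± 52.7 CPM at 54 h. After Foxl2 siRNA the sums were 2663, 2274 and 2793 CPM at 30 h, which overlap the scrambled range of 2748 to 2886 CPM, and 2392, 2351 and 2411 CPM at 54 h, all under the scrambled range of 2652 to 2749 CPM. After Esr2 siRNA the sum was 2851 ± 86 CPM (SD, n = 3). The ratio of summed Mrpl to summed Mrps CPM was 1.935 ± 0.0115 and 1.935 ± 0.013 with scrambled siRNA at 30 h and 54 h, and 1.955 ± 0.00493 after Esr2 siRNA (SD, n = 3 each). After Foxl2 siRNA it was 1.912, 1.856 and 1.932 at 30 h and 1.89, 1.937 and 1.886 at 54 h. The low values are those of the libraries with little Mrpl30. With Mrpl30 left out of the sum, the Foxl2 siRNA libraries had ratios of 1.904, 1.847 and 1.891 (30 h) and 1.884, 1.898 and 1.879 (54 h). The scrambled libraries then spanned 1.881 to 1.909. Replicate 2 at 30 h and replicate 3 at 54 h then lay under the scrambled range. No p is given for these sums, since the genes were chosen with results known.

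**Figure D4:**
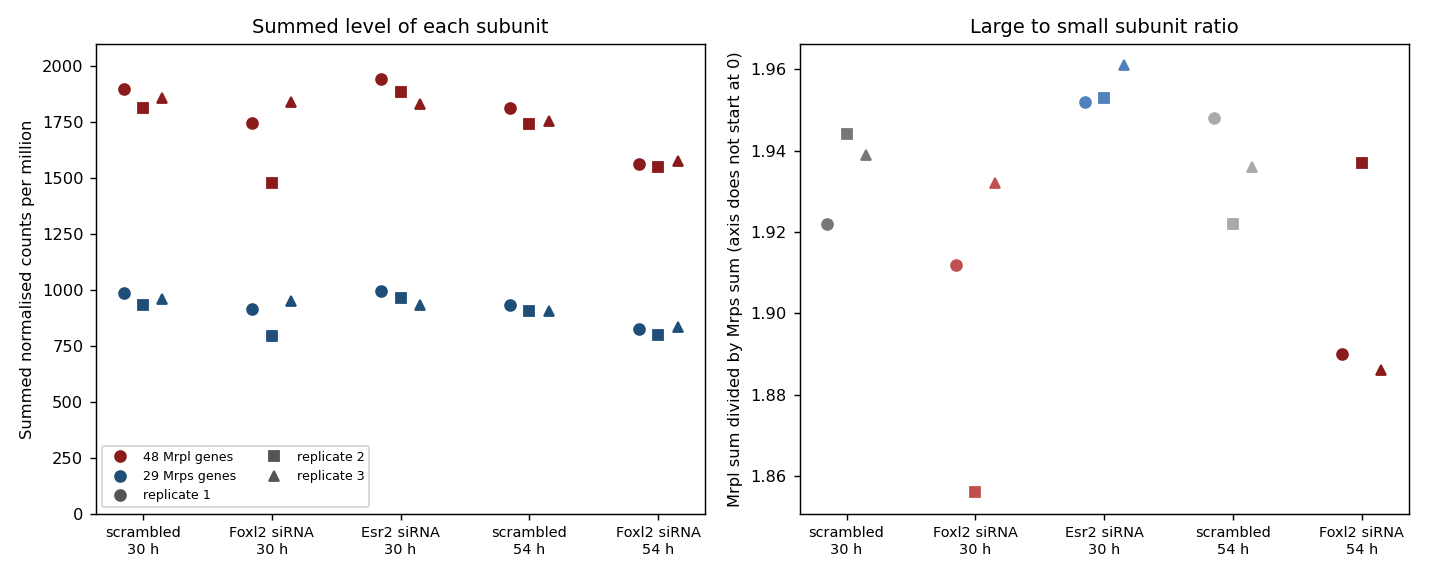
Left, summed normalised CPM of the 48 Mrpl and the 29 Mrps genes in each library (axis from 0); right, their ratio on an axis that does not start at 0, with replicates 1 to 3 as circles, squares and triangles. Both sums are lower in the 3 Foxl2 siRNA libraries at 54 h, and the ratio spans 1.856 to 1.961.

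After Esr2 siRNA at 30 h, 1 member was called, lower (1.3%; background 4.23%, of which 3.11% lower and 1.13% higher). At an unadjusted p under 0.05 there were 6 members, 2 of them higher (7.79%, against 17.6% of all tested genes). Over the 77, the median log2 change was 0.02 (all genes -0.01), and 31 of 77 lay below 0. The Esr2 siRNA libraries all lay above the scrambled ones for 9 members (11.7%, background 14.2%) and below them for 5 (6.49%, background 15.2%). DESeq2 called 3 members, adding Mrps5 and Mrpl48 at adjusted p = 0.0334 and 0.0322, and limma-voom called 16, 9 of them higher. Of all genes, DESeq2 called 6.2% and limma-voom 31.7%.

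The called member was Mrpl34, of a family found in bacterial ribosomes; its gene is at chr8:71464959-71465747 (plus). It stood at 37.5, 35.7 and 35.1 CPM in the 30 h scrambled libraries and at 22.8, 19.8 and 23.3 CPM with Esr2 siRNA. All 3 Esr2 siRNA libraries were below every other library of the study. The fall was 1.64-fold (log2 change -0.72 ± 0.10, adjusted p = 0.0012 by edgeR), and it was called under each of the 13 alternatives, with adjusted p from 1.54e-08 to 0.00855. After Foxl2 siRNA, Mrpl34 stood at 35.5, 27.0 and 36.4 CPM at 30 h and at 31.5, 28.4 and 31.2 CPM at 54 h, neither of which was called (log2 -0.13 ± 0.10 and -0.17 ± 0.10, edgeR adjusted p = 0.427 and 0.19). Esr2 itself was at 25 to 45.5 CPM in the former and 15.7 to 49.3 CPM in the latter libraries.

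Time in culture with scrambled siRNA gave 0 called members and 1 called gene in all (0.00671%) by edgeR. DESeq2 also called 0 members, and 2 had an unadjusted p under 0.05 (2.6%, against 4.88% of all tested genes). Limma-voom called 18, all lower, where it called 18.1% of all genes and 8.67% lower. Deviations from group means correlated between same-numbered scrambled libraries at 0.632, 0.49 and 0.143 for replicates 1 to 3. Scrambled 30 h replicate 3 correlated more with 54 h replicate 2 (0.336), so this pairing is uncertain. A replicate block over all libraries called 0 members, and a block over the 6 scrambled libraries alone called 2, both lower: Mrpl57 (log2 -0.17, adjusted p = 0.0447) and Mrps6 (log2 -0.15, adjusted p = 0.0439). That block called 11% of all genes, 4.79% lower. A change below 0 was measured for 71 of the 77 members, against 49.9% of all tested genes, with a median of -0.07 (all genes 0.00). All 54 h libraries lay below all 30 h libraries for 24 members (31.2%, background 11.2%). Mrps18c had the lowest value, with 12.9, 10.7 and 11.8 CPM at 30 h and 9.71, 10.5 and 9.69 CPM at 54 h (log2 change -0.24 ± 0.11, adjusted p = 1.0 by edgeR), and Mrpl1 the highest (0.06 ± 0.06).

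Lists of the wider mitochondrial translation system are given for 54 h after Foxl2 siRNA. Over all tested genes 38.8% were called and 20.3% were called lower. The shares called in these lists were near or below 38.8%. Shares called lower were 41.4% for assembly, 35% for synthetases, 29.4% for regulators and 21.4% for translation factors. They were 14.3% for proteins with other names, 12.7% for cytosolic ribosomal proteins and 9.33% for oxidative phosphorylation. Of 29 tested genes for mitoribosome assembly and ribosomal RNA modification, 12 fell and 0 rose (41.4% called), with a median log2 change of -0.14. Among them Eral1, which binds the small-subunit ribosomal RNA, had a log2 change of -0.54 ± 0.11 (edgeR adjusted p = 0.0015). Of 20 mitochondrial aminoacyl-tRNA synthetases, which charge the tRNAs, 7 fell (35%), with a median of -0.16. Nars2 fell most (log2 change -0.84 ± 0.08, adjusted p = 1.31e-05 by edgeR), and Tars2 fell as well (log2 change -0.53 ± 0.05, adjusted p = 1.02e-05 by edgeR). Of 14 translation factors, 3 fell and 1 rose, with a median of -0.07. The elongation factor Gfm1 fell (log2 change -0.28 ± 0.05, adjusted p = 0.000789 by edgeR) and the recycling factor Mrrf rose (log2 change 0.34 ± 0.07, adjusted p = 0.00157 by edgeR).

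Of 17 tested genes of mitochondrial gene expression and its regulators, 5 fell, with a median of -0.04, among them the mitochondrial RNA polymerase Polrmt (log2 change -0.47 ± 0.07, adjusted p = 0.000334 by edgeR) and the coactivator Pprc1 (log2 change -0.52 ± 0.09, adjusted p = 0.000476 by edgeR). Of 7 mitoribosomal or ribosome-bound proteins with other names, Chchd1 fell (log2 change -0.29 ± 0.11, adjusted p = 0.045 by edgeR) and the insertase Oxa1l rose (log2 change 0.35 ± 0.08, adjusted p = 0.00356 by edgeR). Nuclear subunits of oxidative phosphorylation, the partners of the proteins that mitoribosomes make, were called in 12% of cases: 7 of 75 fell and 2 rose, with a median of -0.07. Of 79 cytosolic ribosomal proteins 10 fell (12.7%), with a median of -0.18, close to that of the members. The genes encoded by mitochondrial DNA are not analysed here.

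**Figure D5:**
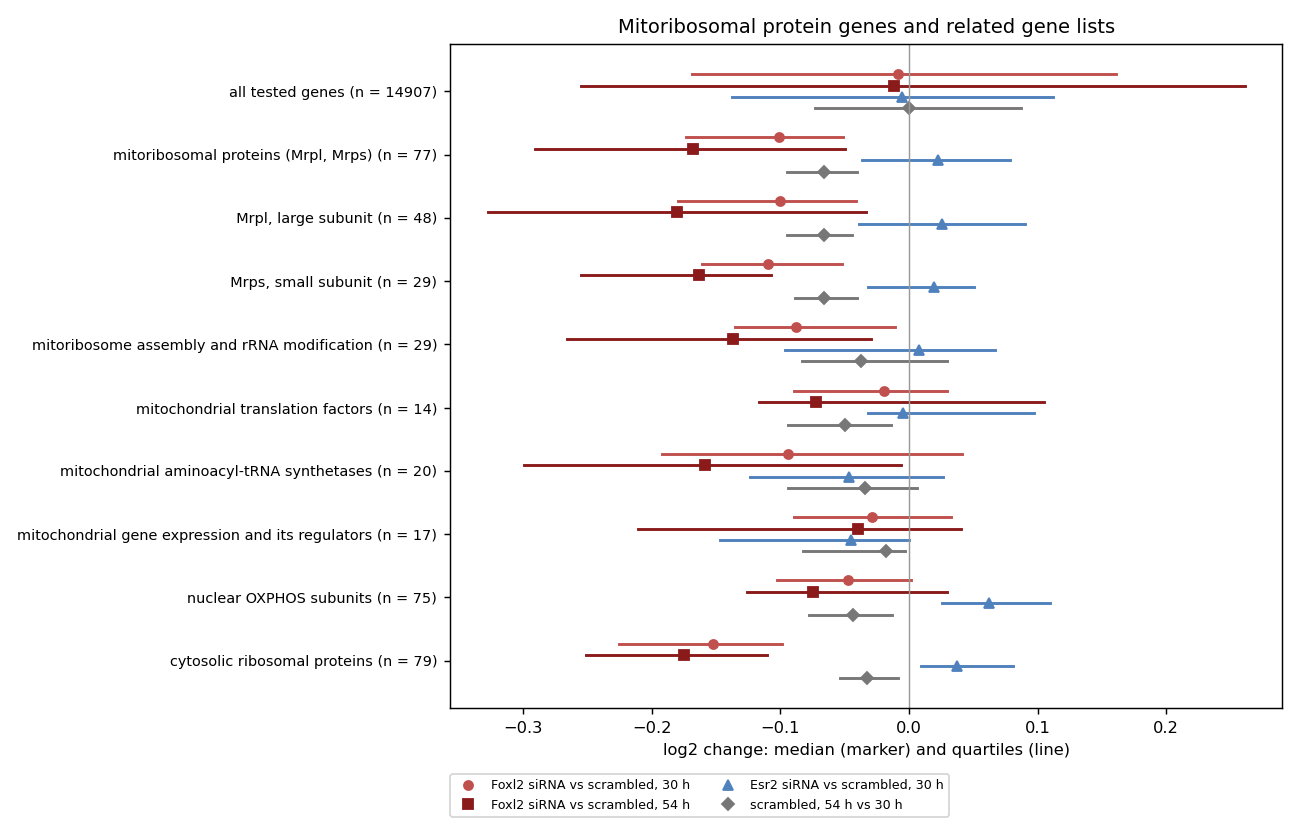
Median (marker) and quartiles (line) of the log2 change of all tested genes, the members, their subunits and 6 related gene lists in 4 comparisons. After Foxl2 siRNA at 54 h the members' median is -0.17 and that of cytosolic ribosomal proteins -0.18, while after Esr2 siRNA both medians are above 0 (0.02 and 0.04).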

How the data were processed

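RNA-seq values were whole-number counts of reads per gene as deposited by the authors, not normalized, 1 file per library. Per the submitters' processing notes, bcl2fastq 2.15.0, TopHat2, DESeq2 and build mm10 were used. Counting program, annotation and strand: not given in the sources used here. Per the labels' protocols, libraries came from a stranded mRNA kit and single reads. The sample titles gave groups, times and replicate numbers; the extract protocol names only 30 h. The 92 ERCC rows (0.105% to 0.352% of counts) were left out of library sizes. In 1 scrambled library 15 symbols turned into dates were restored by their place in the shared gene order, none of them a member. Within each group, replicates differed by more than sampling noise.

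edgeR 4.0.16 (R 4.3.3) was run with TMM scaling, filterByExpr and 1 quasi-likelihood fit of 5 group means over all 15 libraries (10 residual degrees of freedom, biological coefficient of variation 0.148), two-sided, with Benjamini-Hochberg adjustment over 14907 genes. The script was tested on counts simulated with less spread between libraries than the real ones, which checks the code but not the calls. Alternatives were RLE and upper-quartile scaling, no filter, DESeq2 1.42.0, limma-voom 3.58.1 with sample weights, only the groups compared, each library left out, and a replicate block. Leaving out the 2 libraries with most Foxl2, a block over scrambled libraries only, and leaving Mrpl30 out of the ratio were chosen after seeing the data. Deviations of same-numbered libraries from group means correlated above 0.1 in every pair only between scrambled 30 h and 54 h (0.632, 0.49 and 0.143). Numbers, which come from the titles, were therefore taken to pair those samples alone. Foxl2 siRNA libraries also correlated between times. The values were 0.659 for number 1 at both times, 0.643 for 30 h number 3 with 54 h number 2, and 0.545 for 30 h number 2 with 54 h number 3. The Foxl2 siRNA results at the 2 times may therefore not be independent.

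The members and gene lists were chosen with earlier results of these data known. Members named were those called (up to 10 per direction and comparison by adjusted p) and the highest and lowest change of each comparison. Also named were the 3 most and least abundant per coding length and the 3 with the smallest and the largest range. A further 8 were of special interest (Mrps18a, Mrps18b, Mrps18c, Mrps30, Mrps36, Mrps6, Mrpl12 and Mrps12). Mrpl3, Mrpl4, Mrpl44, Mrpl48, Mrpl49, Mrpl53, Mrpl55, Mrpl57 and Mrps34 were named after their values or annotation were seen.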

Additional observations from a re-analysis of the deposited data

How the results depend on the processing

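Leaving out 1 library moved the members' median log2 change between -0.16 and -0.02 for Foxl2 siRNA at 30 h, -0.19 and -0.14 for its 54 h change, 0.00 and 0.06 for Esr2 siRNA, -0.09 and -0.05 for time with scrambled siRNA, and -0.12 and 0.01 for the difference between times, so the last had no stable sign. For Foxl2 siRNA at 30 h, 5 in the main analysis, the count was 3 with RLE scaling, 3 with upper-quartile scaling, 3 with no filter, 19 with limma-voom, 1 with only the groups compared and 25 without the 30 h replicate 3 and the 54 h replicate 2 of Foxl2 siRNA; leaving out 1 library gave 1 to 16. At 54 h (27) leaving out 1 library gave 14 to 27. For Esr2 siRNA (1) DESeq2 gave 3 and limma-voom 16. For scrambled 54 h against 30 h (0) limma-voom gave 18 and the block over scrambled libraries 2. For the difference between times (0) leaving out 1 library gave 0 to 1. The cause of these moves was not tested, beyond the smaller number of libraries where some were left out, and the share of all genes called moved too. The replicate block over all libraries gave 6, 27, 1, 0 and 0 members in the order above, and changed no count by over 1.5 times; 4 of 15 libraries correlated best with one of their own number.

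With Mrps18a and Mrps30 counted as large subunit and Mrps36 left out, the ratio of the subunits was 2.241 and 2.25 with scrambled siRNA at 30 h and 54 h, 2.205 and 2.231 with Foxl2 siRNA, and 2.261 with Esr2 siRNA; this follows from the moved genes. As a difference of mean log2 CPM it was 0.1739, 0.1729, 0.1266, 0.1188 and 0.1764. Without Mrpl30 the ratio was 1.894 and 1.896 with scrambled siRNA, 1.881 and 1.887 with Foxl2 siRNA and 1.915 with Esr2 siRNA. With upper-quartile scaling, 1204 genes were called higher and 799 lower at 30 h after Foxl2 siRNA, against 945 and 991 in the main analysis. The lowest count of a member in a library was 227; effects of depth were not tested.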
